A study of Macaca mulatta with 20 samples.

Results

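Cells that meet radiation or carry out an oxidative burst handle superoxide and hydrogen peroxide with a small set of enzymes. Superoxide dismutases turn superoxide into hydrogen peroxide, which catalase, the glutathione peroxidases and the peroxiredoxins remove. Glutathione and thioredoxin supply the electrons, and the transcription factor NRF2 is known to switch on many of these genes. The genes described here were 10 of this set: SOD1, SOD2, CAT, GPX1, GCLM, TXN, TXNRD1, PRDX1, HMOX1 and NQO1. They were taken by gene symbol from the probes that are not controls, and a probe counted if it was well above background on at least 5 of the 20 arrays. In all, 9 of the 10 genes passed, with 11 of their 12 probes, among 19961 of 34127 probes on the array that did so.

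Whole blood of male rhesus macaques (Macaca mulatta) was drawn pre-irradiation and on days 2, 5 and 30 after 10 Gy of X-rays aimed at the midplane of the thorax. Each of the 4 groups had 5 arrays, numbered as replicates 1 to 5, and the labels give no ages for single arrays. Pre-irradiation blood came from the same study animals 3 days before exposure, none received a mitigator, and there was no sham-irradiated group, so time after exposure and repeated bleeding and anaesthesia cannot be told apart. The labels count 8 animals, more than the 5 arrays of a group. Per the study's methods the arrays were paired by animal, with 1 exception in which the RNA of a pair of animals was pooled. The labels do not name that array. Pairs below are arrays of equal replicate number, on the assumption that the number marks the same animal. RNA depleted of globin transcripts was hybridised to 1-colour Agilent arrays designed on the human genome.

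Between 50.9% and 67.3% of an array's probes lay well above background, and the highest share belonged to day 5 replicate 3, which stood apart from the others at 55.9% to 58.5% in its group. The lowest share belonged to pre-irradiation replicate 1, where the others of its group lay at 55.4% to 58.7%. That array is the earlier one of pair 1 in each comparison with pre-irradiation. Every group sat at 1 position of the 5 slides, so position and group cannot be told apart, while each slide held 1 array of each group. Markers of leukocytes, platelets and red cells (PTPRC, CSF3R, CD14, CD3E, CD79A, PF4, ALAS2) were well above background on 20 of 20 arrays, as whole blood would have. Levels below are log2 signals minus the 75th percentile of the same array, and they rank arrays for 1 probe, not genes against each other.

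The probe sequences of SOD2, TXN and TXNRD1 are shown because the arrays carry human sequence and the RNA was of macaque, with coordinates on the human build hg19. None of these 3 probes shared a run of 16 letters, on either strand, with a probe of another gene.
SOD2 probe, chr6:160103590-160103649, minus strand: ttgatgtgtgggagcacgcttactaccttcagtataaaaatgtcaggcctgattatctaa
TXN probe, chr9:113006449-113007066, minus strand: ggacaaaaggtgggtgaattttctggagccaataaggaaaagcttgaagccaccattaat
TXNRD1 probe, chr12:104732949-104733008, plus strand: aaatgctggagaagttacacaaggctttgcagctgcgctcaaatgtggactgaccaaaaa
The TXN probe of 60 letters spans 618 bases of the genome, so it reads across a splice junction. The lower-signal GPX1 probe is shown with a run of 16 letters in capitals that 1 probe of another gene shares.
GPX1 probe, chr3:49394925-49394984, minus strand: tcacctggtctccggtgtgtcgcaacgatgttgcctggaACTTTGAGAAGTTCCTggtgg
The other probes lay at chr21:33040890-33040949 (SOD1, plus strand), chr11:34493034-34493093 (CAT, plus), chr3:49394608-49394667 (the brighter GPX1 probe, minus), chr22:35790122-35790181 (HMOX1, plus), chr16:69744274-69744333 (NQO1, minus), chr1:94352810-94352869 (GCLM, minus), and chr1:45976740-45976799 and chr1:45980295-45980589 (PRDX1, minus).

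Across the set, no member probe was called at limma p under 0.005 with a false discovery rate under 10% in any of the 6 comparisons between time points. Few probes of the whole array were called either, at 0.0551% of those tested at day 2, 0% at day 5 and 0.02% at day 30 against pre-irradiation. Between days the shares were 0% for day 5 against day 2, 0.0551% for day 30 against day 2 and 0% for day 30 against day 5. The smallest adjusted p-value among the member genes against pre-irradiation was 0.192 at day 2, 0.353 at day 5 and 0.161 at day 30. A test of the 5 differences of single probes, with no spread shared between probes, called 0 of the 11 in every comparison. It called at most 1 of 19961 probes in any comparison, so it could hardly have called a member. No member had groups that did not overlap against pre-irradiation, a pattern that 1.55%, 0.611% and 2.08% of all probes had at days 2, 5 and 30.

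At an unadjusted limma p under 0.05, 2 of 11 member probes were higher at day 2 (SOD2 and TXNRD1) and 0 lower, where 8.91% of all probes were higher and 5.92% lower. At day 5, again 2 were higher (TXNRD1 and the lower-signal GPX1 probe) and 0 lower, against 7.2% and 4.15% of all probes. At day 30, 1 was higher (TXN) and 1 lower (the brighter GPX1 probe), against 8.58% and 8.97%. Between days the counts in either direction were 0 of 11 for day 5 against day 2, where 3.47% of all probes passed, 1 for day 30 against day 2, where 13% passed, and 2 for day 30 against day 5, where 8.31% passed. The counts are too small to set the members apart from these shares.

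With 1 probe for each gene, the median log2 change over the 9 genes was 0.08 at day 2, 0.19 at day 5 and 0.17 at day 30, beside -0.02, 0.02 and 0.01 over all 15929 genes tested. On each of these days the median of the 9 was the value of GCLM. The GCLM probe shares runs of letters with probes of 13 other genes, and whether its signal was that of GCLM alone was not tested. The day 2 median of the 9 genes turned to -0.38 with another background correction, the normexp model, which also moved the median of all probes from -0.02 to 0.12. At day 2, 6 genes were higher and 3 lower, at day 5 again 6 and 3, and at day 30 7 and 2. Single genes ranged from -0.29 (SOD1) to 1.14 (SOD2) at day 2, from -0.31 (HMOX1) to 0.57 (SOD2) at day 5, and from -0.57 (GPX1) to 1.01 (TXN) at day 30.

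Without replicate 3, whose day 5 array stood apart in detection, the day 5 differences were 0.82 for SOD2, 0.40 for TXNRD1, 0.53 for TXN, 0.24 for the brighter GPX1 probe, 0.14 for GCLM, 0.09 for PRDX1, 0.02 for SOD1, -0.07 for CAT and -0.38 for HMOX1. SOD1 was the gene whose sign turned, from -0.03.

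**Figure D1:**
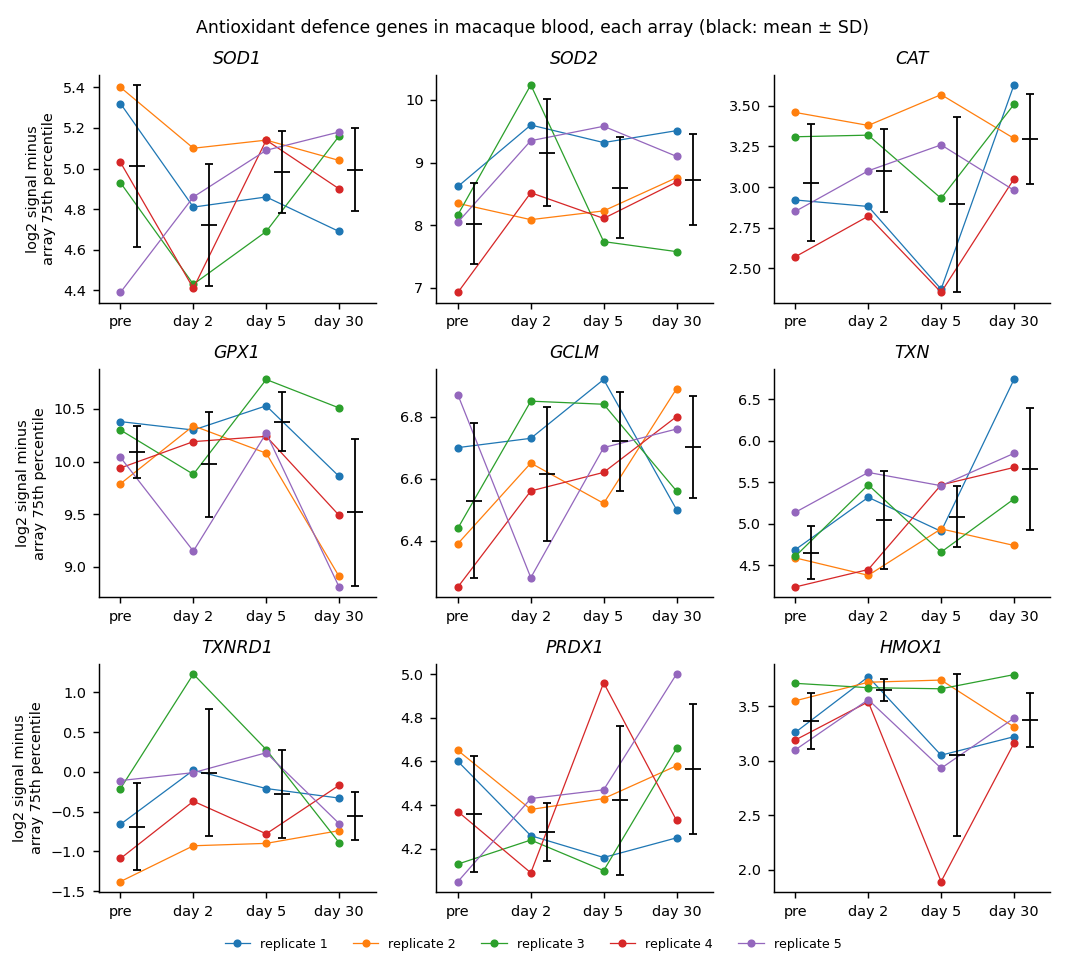
Log2 signal minus the array's 75th percentile (y axis) for the 9 genes that passed, at each time point (x axis), with 1 coloured line per replicate number and the mean with its SD in black (5 arrays). SOD2 was highest at day 2 with a mean of 9.16, TXN at day 30 with a mean of 5.66, and the groups of every gene overlapped with pre-irradiation.

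SOD2 encodes the manganese superoxide dismutase of mitochondria and is known to be induced by inflammatory cytokines in myeloid cells. Before irradiation its level was 8.62, 8.35, 8.17, 6.93 and 8.05 in replicates 1 to 5, and at day 2 it was 9.60, 8.09, 10.24, 8.52 and 9.35. The level was higher at day 2 in 4 of 5 pairs, and replicate 2 was the exception. The mean difference was 1.14 on the log2 scale (SE 0.31, 95% interval 0.42 to 1.85), a 2.2-fold higher signal, with a limma p of 0.0063 and an adjusted p of 0.192.

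At day 5 the SOD2 level was 9.32, 8.23, 7.74, 8.11 and 9.58, and at day 30 it was 9.51, 8.76, 7.58, 8.69 and 9.10. Replicate 3, which had the highest SOD2 level of all arrays at day 2, had the lowest of its group on both later days. The mean difference from pre-irradiation was 0.57 (SE 0.30) at day 5, with 3 of 5 pairs higher, and 0.70 (SE 0.31) at day 30, with 4 of 5 higher, and the limma p-values were 0.0935 and 0.0501. The day 5 difference was 0.33 without replicate 5 and 0.82 without replicate 3, and that of day 30 was 0.44 without replicate 4 and 1.03 without replicate 3. Under the normexp background correction the day 2 difference was 0.58 (SE 0.36), with a limma p of 0.145. Without replicate 2, SOD2 at day 2 did pass, at 1.48 (SE 0.22) and an adjusted p of 0.0515, when the count over all probes went from 11 to 681. Paired within slides in place of replicate numbers, the day 2 difference was above 0 on 3 of 5 slides, with a limma p of 0.0371.

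The summed level of 9 neutrophil markers varied with SOD2 from pair to pair, and 9 of the 9 had a higher mean at day 2, at day 5 and at day 30. At day 2, the log2 change of that sum was 1.10, 0.05, 1.55, 1.34 and 0.67 in pairs 1 to 5, and that of SOD2 was 0.98, -0.25, 2.07, 1.59 and 1.30. Pair 2 was lowest in both measures and pair 3 highest in both. Pair 2 also had the smallest day 2 change of platelet markers (0.39, others 1.36 to 1.97) and of T and NK cell markers (-0.24, others -1.04 to -0.56). Monocyte markers changed least in pair 3, B cell markers in pair 5 and erythroid markers in pair 1. The neutrophil sum ranged from 215 to 709 before irradiation, from 455 to 1477 at day 2, from 449.5 to 1207 at day 5 and from 581 to 2050 at day 30, in units of each array's 75th percentile, and its part in the SOD2 result was not tested. In whole blood, fewer cells of a type and less RNA per cell cannot be told apart.

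SOD1 encodes the copper and zinc superoxide dismutase of the cytosol. Its level ran from 4.39 to 5.40 before irradiation and from 4.41 to 5.10 at day 2, with a mean difference of -0.29 (SE 0.19), and it was lower in 4 of 5 pairs. The day 2 difference was -0.82 (SE 0.34) under normexp and -0.48 (SE 0.16) without replicate 5, with limma p-values of 0.0365 and 0.023 before adjustment. At days 5 and 30 the mean differences were -0.03 (SE 0.20) and -0.02 (SE 0.23). Neither interval left out 0, and that at day 30 ran from -0.54 to 0.50.

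Thioredoxin, the product of TXN, is a small dithiol protein that reduces peroxiredoxins, ribonucleotide reductase and oxidised transcription factors. Its level was 4.69, 4.59, 4.61, 4.24 and 5.14 before irradiation and 6.74, 4.74, 5.30, 5.68 and 5.85 at day 30. All 5 pairs were higher at day 30, by 2.04, 0.14, 0.69, 1.44 and 0.72, though the lowest day 30 array lay below the highest array of the earlier group. The mean difference was 1.01 (SE 0.27, 95% interval 0.38 to 1.63), a 2.01-fold higher signal, with a limma p of 0.0058 and an adjusted p of 0.161. Without replicate 1, whose pre-irradiation array had the lowest detection, it was 0.75 (SE 0.24).

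At day 2 TXN stood at 5.32, 4.38, 5.47, 4.45 and 5.62, and at day 5 at 4.91, 4.94, 4.66, 5.47 and 5.46. The mean differences from pre-irradiation were 0.39 (SE 0.19, 4 of 5 pairs higher) and 0.43 (SE 0.20, 5 of 5 higher), with limma p-values of 0.0693 and 0.0618, and the day 2 difference turned to -0.17 under normexp. Day 30 was 0.61 above day 2 (SE 0.26, adjusted p = 0.382 by limma). Within slides the day 30 difference was above 0 on 5 of 5 slides, from 0.04 to 2.13. TXN was called at day 30 when the test was kept to the probes detected on 20 of 20 arrays, at an adjusted p of 0.0931. That setting called 651 of 15339 probes at day 30, beside 4 of 19961 in the main fit.

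The neutrophil sum was also higher in 5 of 5 pairs at day 30, by 1.80, 0.65, 0.21, 1.77 and 0.79 on the log2 scale. Pairs 1 and 4 were highest for both TXN and the neutrophil markers, while the lowest pair differed. The monocyte sum was higher in 5 of 5 pairs too, by 1.05, 0.57, 0.11, 1.03 and 0.31, with pairs 1 and 4 again highest. Neither link was tested.

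TXNRD1 encodes thioredoxin reductase 1, the selenoprotein that regenerates reduced thioredoxin with NADPH. Its level was -0.66, -1.38, -0.21, -1.09 and -0.11 before irradiation. On day 2 it was 0.02, -0.93, 1.23, -0.37 and -0.01, and on day 5 it was -0.21, -0.90, 0.28, -0.78 and 0.24. Every pair was higher on both days. The differences at day 2 spread from 0.11 to 1.44, whereas those at day 5 lay close together, at 0.46, 0.48, 0.49, 0.32 and 0.35.

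The mean TXNRD1 difference was 0.68 (SE 0.21) at day 2 and 0.42 (SE 0.13) at day 5, with limma p-values of 0.0108 and 0.0144 and adjusted p-values of 0.220 and 0.353. By day 30 its values were -0.33, -0.74, -0.89, -0.17 and -0.65, and the mean difference was 0.14 (SE 0.27, 95% interval -0.48 to 0.75). The difference of day 30 from day 2, -0.55 (SE 0.34, adjusted p = 0.509 by limma), did not pass, so the courses of TXN and TXNRD1 are given side by side without a claim that they differ. With slides in place of replicate numbers as the block, the limma p-values of TXNRD1 were 0.0753 and 0.194 at days 2 and 5. Under normexp the day 2 difference was 0.39, with a limma p of 0.0621, and under median scaling that of day 5 was 0.29, with a limma p of 0.215.

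PRDX1 encodes a peroxiredoxin that passes electrons from thioredoxin to peroxides. Its brighter probe ran from 4.05 to 4.65 before irradiation, 4.09 to 4.43 at day 2, 4.10 to 4.96 at day 5 and 4.25 to 5.00 at day 30. The mean differences from pre-irradiation were -0.08 (SE 0.17), 0.06 (SE 0.19) and 0.21 (SE 0.22), all with intervals across 0, and the first was -0.56 under normexp. The other PRDX1 probe gave 0.09, 0.15 and 0.37, so the 2 probes had opposite signs at day 2, where both were within 1 SE of 0.

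**Figure D2:**
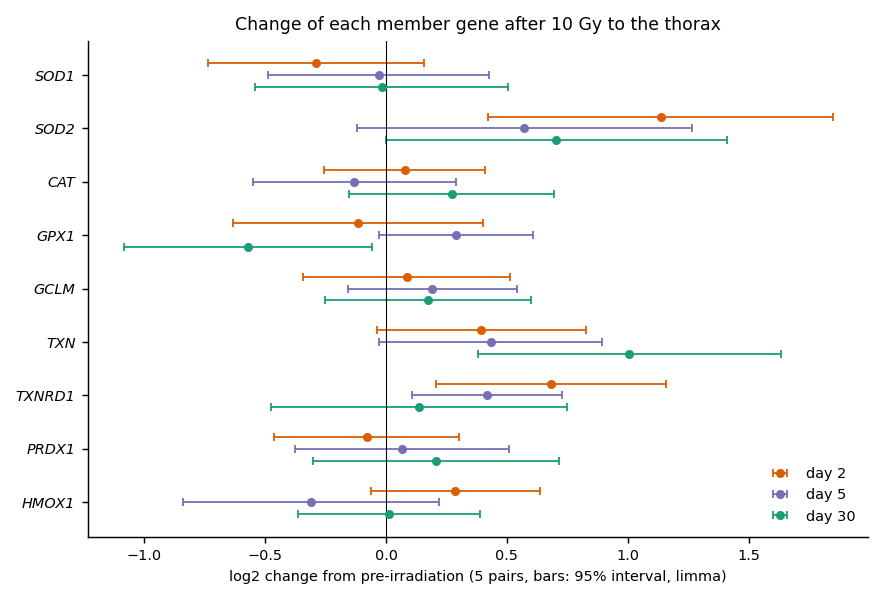
Mean log2 change from pre-irradiation (x axis) for each of the 9 genes at days 2, 5 and 30, from 5 pairs, with bars for the 95% interval of the limma fit. Intervals that left out 0 were those of SOD2 and TXNRD1 at day 2, TXNRD1 at day 5, and TXN and GPX1 at day 30.

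GPX1 encodes the main cytosolic glutathione peroxidase, a selenoprotein abundant in red cells. Its brighter probe stood at 10.38, 9.79, 10.30, 9.94 and 10.04 before irradiation, at 10.53, 10.08, 10.78, 10.24 and 10.27 on day 5, and at 9.86, 8.91, 10.51, 9.49 and 8.81 on day 30, and it was saturated on 0 arrays. Day 5 was above pre-irradiation in 5 of 5 pairs, by 0.14 to 0.48, and day 30 below it in 4 of 5, with replicate 3 the exception. The mean differences were 0.29 (SE 0.14, adjusted p = 0.477 by limma) and -0.57 (SE 0.23, adjusted p = 0.247), and at day 2 the difference was -0.12 (SE 0.22), or -0.69 under normexp.

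From day 5 to day 30, GPX1 was lower in every pair, by 0.66, 1.17, 0.27, 0.74 and 1.46, and the mean change was -0.86 (SE 0.21, 95% interval -1.35 to -0.37). That is 0.550 times the day 5 signal, with the smallest p-value of any member in any comparison, 0.0035 by limma, but the adjusted p was 0.587. The second GPX1 probe gave the same signs, at 0.48 (SE 0.18) for day 5, -0.71 (SE 0.42) for day 30 and -1.19 (SE 0.36) from day 5 to day 30, where 4 of 5 pairs were lower. Both probes were lowest at day 30 in replicates 2 and 5 and highest in replicate 3.

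At day 30, erythroid marker levels varied with GPX1 from pair to pair. The summed level of 10 erythroid markers was lower at day 30 than before irradiation in 4 of 5 pairs, by 0.52, 0.64, 0.47 and 0.64 on the log2 scale in pairs 1, 2, 4 and 5, and higher by 0.20 in pair 3, the pair in which GPX1 was higher too. The sum ranged from 5498 to 7086 before irradiation, 4500 to 7822 at day 2, 4955 to 9486 at day 5 and 3533 to 8119 at day 30, and 8 of the 10 markers had a lower mean at day 30. Leaving out the globin genes, which were targets of the RNA depletion, the sum of the other 8 differed by -0.39, -1.51, 0.73, -0.53 and -1.54 in pairs 1 to 5. At day 2 the sum of the 10 markers and GPX1 changed in the same direction in every pair, in pair 1 by -0.03 and -0.09. Without the globin genes the day 2 sum changed by 0.19, 0.67, -1.06, 0.29 and -1.17, so pair 1 had opposite signs. At day 5 the sum of the 10 markers changed by 0.12, 0.13, 0.42, -0.32 and 0.54 in pairs 1 to 5. GPX1 changed by 0.14, 0.29, 0.48, 0.30 and 0.23, so pair 4 had opposite signs. Without the globin genes the day 5 sum changed by -0.13, 0.20, 0.78, -0.54 and 0.85, so pairs 1 and 4 had signs opposite to GPX1. The part of red cells and reticulocytes in the GPX1 values was not tested.

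**Figure D3:**
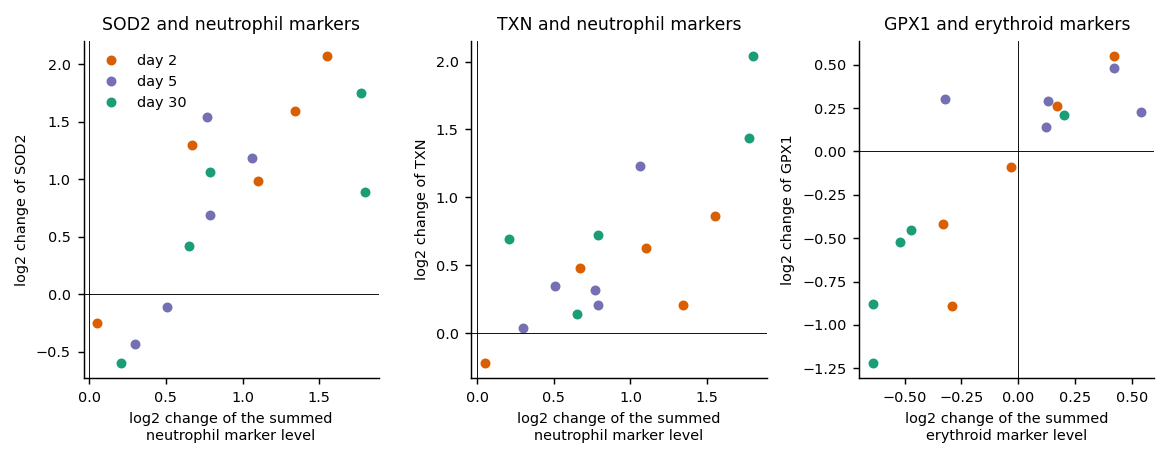
Log2 change from pre-irradiation of a member gene (y axis) against that of the summed level of a marker list (x axis), 1 point for each of 5 pairs at each of 3 days, for SOD2 and TXN with neutrophil markers and GPX1 with erythroid markers. Points of 1 replicate number share a pre-irradiation array, and SOD2 in pair 2 at day 2, at -0.25, sits beside the smallest neutrophil change, 0.05.

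CAT encodes catalase, which splits hydrogen peroxide in peroxisomes. Its level ran from 2.57 to 3.46 before irradiation, 2.82 to 3.38 at day 2, 2.35 to 3.57 at day 5 and 2.98 to 3.63 at day 30. The mean differences were 0.08 (SE 0.14), -0.13 (SE 0.18) and 0.27 (SE 0.19), the first turning to -0.38 under normexp, and day 30 was higher in 4 of 5 pairs. CAT had 10 spots on each array, like HMOX1, so its array values were means over more spots than those of SOD2, TXN or GPX1, which had 1.

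GCLM encodes the modifier subunit of glutamate-cysteine ligase, the first step of glutathione synthesis. Its level ran from 6.25 to 6.87 before irradiation and from 6.28 to 6.92 over the later arrays. The mean differences were 0.08 (SE 0.19), 0.19 (SE 0.15) and 0.17 (SE 0.19) at days 2, 5 and 30, the first turning to -0.47 and the last to -0.01 under the normexp background correction, and the intervals reached from -0.34 to 0.60. The GCLM probe shared runs of 16 letters with probes of 13 other genes, and whether its signal was that of GCLM alone was not tested.

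HMOX1 encodes heme oxygenase 1, an NRF2 target that degrades heme in macrophages. Its level was 3.26, 3.55, 3.71, 3.19 and 3.10 before irradiation, and 3.77, 3.72, 3.67, 3.54 and 3.56 at day 2, where the arrays had the smallest spread of any group (SD 0.10, n = 5). The mean difference was 0.29 (SE 0.15, adjusted p = 0.417 by limma), with 4 of 5 pairs higher, and it turned to -0.22 under normexp. On day 5 the values were 3.05, 3.74, 3.66, 1.89 and 2.93. Replicate 4 lay 1.31 below the pre-irradiation array of its number, while the others differed by 0.21 or less. The mean day 5 difference of -0.31 (SE 0.23) became -0.06 without replicate 4, and the day 30 difference was 0.01 (SE 0.17).

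NQO1, a quinone reductase and a classical NRF2 target, was the member that did not pass. Its probe was well above background on 3 of 20 arrays, pre-irradiation replicates 4 and 5 and day 2 replicate 4, with processed signals of 44, 26.1 and 56.2. On the other arrays the signals ran from 3.3 to 13.6, and the lowest signal of a probe well above background was between 12.4 and 20.8 on each array. NQO1 was therefore not well above background on any array of day 5 or day 30, and no change was computed for it in the tests above.

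The wider antioxidant set held 71 other gene symbols in lists by role, of which 69 had a probe and 64 were tested, and none was called at days 2, 5 or 30. At an unadjusted p under 0.05, 17 of the 64 were higher at day 2 and 1 lower, 9 higher and 1 lower at day 5, and 10 higher and 6 lower at day 30. These are 26.6%, 14.1% and 15.6% higher, beside the 8.91%, 7.2% and 8.58% of all probes given above. The list shares count genes, each by its probe with the highest mean, and the others count every probe tested, so the units are unlike. Their median log2 changes were 0.11, 0.26 and 0.22. The lists were drawn up with earlier results of these data known, so the shares are a description.

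Of these, PRDX6 and FOXO3 had an unadjusted limma p under 0.005 against pre-irradiation, both at day 2, and no gene of the lists did at day 5 or day 30. PRDX6, a peroxiredoxin that uses glutathione and also acts as a phospholipase, was at 6.35, 6.35, 6.14, 6.17 and 6.16 before irradiation and at 7.51, 6.61, 6.8, 7.02 and 7.02 on day 2. Its groups did not overlap, as for 1.55% of all probes at day 2, and the mean difference was 0.76 (SE 0.17, adjusted p = 0.158 by limma). FOXO3, a transcription factor that acts on SOD2 and CAT, was 0.70 higher (SE 0.18, adjusted p = 0.182 by limma), from 3.60, 4.18, 3.25, 3.52 and 4.16 to 4.6, 4.74, 4.32, 4.25 and 4.32, again with no overlap. A second of its 3 probes gave 0.70 and the third 0.28. Both genes were named for their small p-values in this comparison, so the lack of overlap on the same arrays adds no separate support.

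By role, and members included, the counts of genes higher on day 2 at an unadjusted limma p under 0.05 stood beside 8.91% of all probes, again in unlike units. They were 1 of 3 superoxide dismutases (median change 0.06), 0 of 5 in the catalase and glutathione peroxidase list (-0.03) and 0 of 6 in glutathione synthesis and reduction (0.02, with 1 lower). They were 2 of 4 methionine sulfoxide reductases (median 0.51), 2 of 7 in heme and quinone detoxification and ferritin (0.28) and 3 of 10 regulators of the stress response (0.18). The 11 thioredoxins, glutaredoxins and reductases held TXNRD1 and 3 others that were higher at an unadjusted p under 0.05 on day 2, with a list median of 0.17. Of 15 glutathione S-transferases, 1 was higher on day 2 (median -0.08), and on day 30 1 was higher and 3 lower. Of 6 peroxiredoxins, PRDX6 and PRDX5 were higher on day 2, and the list median was -0.01.

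**Figure D4:**
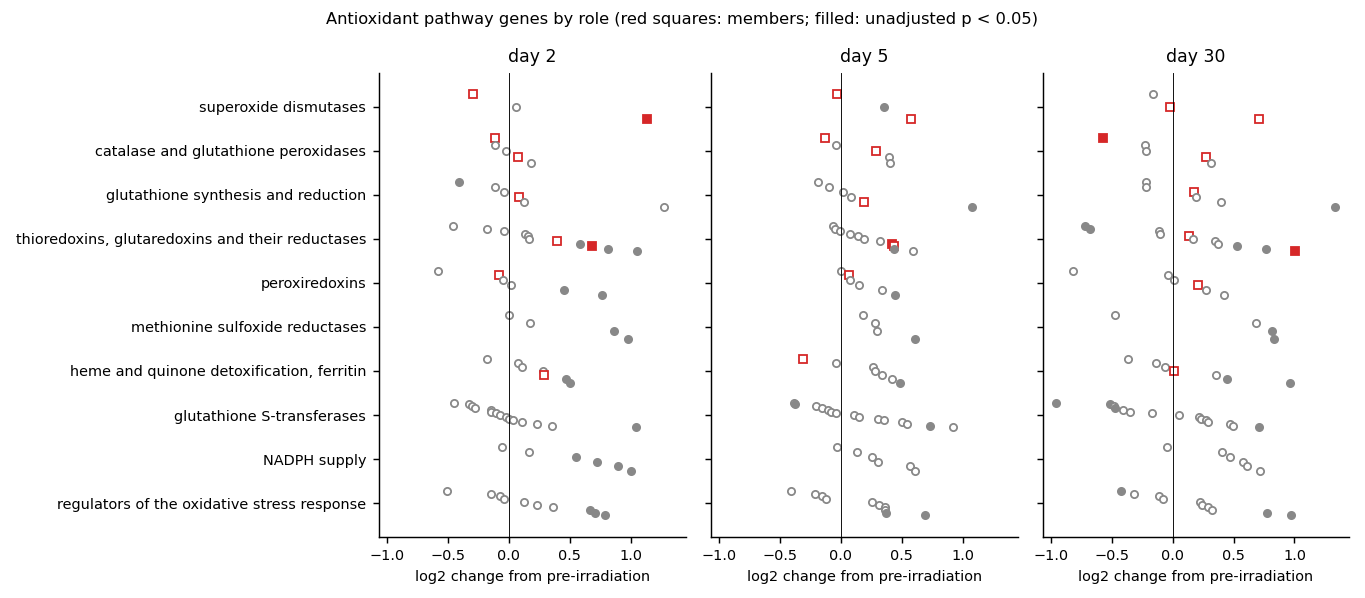
Log2 change from pre-irradiation (x axis) at days 2, 5 and 30 for the tested genes of 10 role lists (y axis), with red squares for the member genes and grey circles for the others, filled where the unadjusted limma p was under 0.05. SOD2 at 1.14 on day 2 and TXN at 1.01 on day 30 were the members farthest to the right, and no point passed the adjusted threshold.

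The other cell type lists differed between time points as well. Platelet markers were higher at day 2 in 7 of 7 cases, with sums of 30.7 to 99.3 before irradiation and 101 to 388 at day 2, and 57.8 to 81.1 at day 30. T and NK cell markers had a lower mean at day 2 in 9 of 9 cases, with sums of 127 to 182 before and 86.0 to 118 at day 2, and the 4 B cell markers were lower in 4 of 4 at each later day. Monocyte markers were higher at day 2 in 7 of 7 cases, with sums of 109 to 315 before and 221 to 407 after. No marker gene of the neutrophil, monocyte, platelet, B cell or erythroid lists was called at day 2, day 5 or day 30, and 1 of the T and NK cell list was at day 2. The part of cell composition in the member values was not tested.

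**Figure D5:**
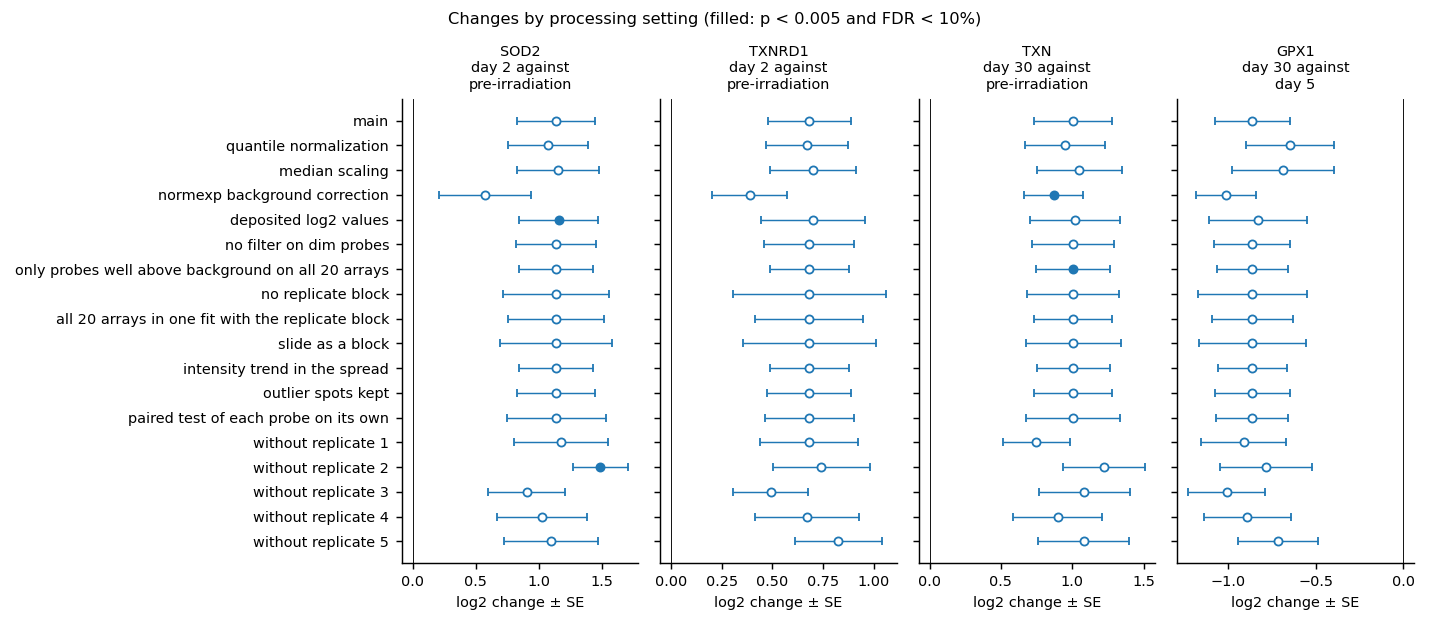
Log2 change with its SE (x axis) of SOD2 and TXNRD1 at day 2, TXN at day 30, and GPX1 from day 5 to day 30, under each processing setting (y axis), filled where the call threshold was met. Each change kept its sign in 17 of 17 alternatives, and SOD2 passed in 2, TXN in 2, and TXNRD1 and GPX1 in 0. Alternatives that altered only the filter, the block or the fit left the log2 change as it was, so their sign could not turn.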

How the data were processed

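Per the file headers, the authors scanned 1-colour Agilent arrays with Feature Extraction 12.0.2.2 (10.7 per the submitters' processing notes), and the deposited scanner files hold processed signal intensity after background correction. The deposited series table holds log2 values of 5884 probes, equal within 0.001 to log2 intensity plus a constant for each array for about 97% of them, with column medians from 7.55 to 7.83. Spots marked as outliers were left out, log2 signals of a probe's spots were averaged, and the array's 75th percentile was subtracted. With limma 3.58.1 (R 4.3.3), each pair of groups was fitted alone with the replicate number as a block, on 19961 probes well above background on at least 5 of 20 arrays, with Benjamini-Hochberg adjustment over all of them and calls at p under 0.005 and a false discovery rate under 10%. Pairing by animal comes from the study's methods, and that equal replicate numbers mark the same animal was assumed. Same-numbered arrays' deviations correlated at 0.04 to 0.70 across the comparisons with pre-irradiation and at -0.22 to 0.50 between later days. The earlier array correlated best with its own number in 4, 4 and 2 of 5 cases for days 2, 5 and 30 against pre-irradiation. That count was 2 of 5 for day 5 against day 2, and 3 of 5 for day 30 against day 2 and against day 5. The fit was tested on simulated data.

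A gene with several probes was represented by the one with the highest mean over 20 arrays, the other being given where it disagreed. Other pathway genes were named if their p was under 0.005 against pre-irradiation, at most 4 a day. The members and lists were chosen with earlier results of these data known. Marker sums add linear levels. Some items, a role list among them, are not reported here. Alternatives were quantile normalization, median scaling, normexp (offset 50), the deposited values, other filters, blocks and fits, and leaving out each replicate. Whether macaque transcripts match the human probes was not checked, and array number limits the precision.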

Additional observations from a re-analysis of the deposited data

Results flagged for a closer look

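In the 44 groups of 5 arrays formed by the 11 member probes and 4 time points, 1 array lay far from the others by Dixon's criterion, where chance gives about 1 in 20 groups. It was pre-irradiation replicate 2 for the lower-signal GPX1 probe, at 8.02 where the other 4 arrays ran from 8.67 to 8.91. The brighter GPX1 probe had its lowest pre-irradiation value, 9.79, on the same array. Without replicate 2, the difference of the lower-signal GPX1 probe from pre-irradiation went from -0.09 to -0.46 at day 2 and from -0.71 to -0.60 at day 30, and at day 5 it was 0.48 both ways.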

How the results depend on the processing

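No member probe was called in the main analysis. Against pre-irradiation, 1 (SOD2) was called at day 2 with the deposited values, where 327 of 5653 probes were called. These values hold 5 of the 11 member probes and 4 of the 9 genes. Leaving out a replicate gave 0 or 1 at day 2, SOD2 again, without replicate 2, where 681 of 19961 probes were called. At day 30, 2 (TXN and the brighter GPX1 probe) were called with normexp and 1 (TXN) when the test was kept to probes detected on 20 of 20 arrays. Over all probes these settings called 899 of 19961 and 651 of 15339. All other alternatives called 0 member probes in every comparison. The fit with no replicate block and quantile normalization called 0 of 19961 probes against pre-irradiation, so they could not have called a member there. The fit of all 20 arrays called 368 of 19961 at day 2 and 238 at day 30, with 0 members. With no replicate block the limma p of SOD2 at day 2 was 0.0192 in place of 0.0063, unadjusted. With the deposited values the median over 4 genes was 0.56, 0.41 and 0.43 at days 2, 5 and 30. It covers fewer genes and does not compare with the median over 9. At day 2 the 4 genes lay close to the main analysis, with SOD2 at 1.16 (main 1.14), TXNRD1 0.70 (0.68), TXN 0.41 (0.39) and GPX1 -0.10 (-0.12). With normexp the median over 9 genes moved to -0.38 at day 2.

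Of 255 alternative values for single genes against pre-irradiation, 229 kept their sign and stayed short of the call threshold, 4 kept it and passed, and 22 changed sign, none from a main change larger than 0.39. Under normexp CAT was -0.38, HMOX1 -0.22, TXN -0.17 and GCLM -0.47 at day 2, and HMOX1 -0.13 and GCLM -0.01 at day 30. Quantile normalization gave -0.01 for GCLM at day 2 and -0.09 for HMOX1 at day 30, and median scaling -0.07 for PRDX1 at day 5 and 0.03 for SOD1 at day 30. Leaving out a replicate in turn gave GPX1 -0.28 to 0.08 at day 2, SOD1 -0.21 to 0.08 and PRDX1 -0.07 to 0.19 at day 5, and SOD1 -0.22 to 0.13, HMOX1 -0.05 to 0.07 and TXNRD1 -0.06 to 0.34 at day 30. The cause was not tested.

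Calls over all probes went from 11 at day 2 to between 0 and 681 (without replicate 2), from 0 at day 5 to at most 9, from 4 at day 30 to between 0 and 899 (normexp), from 11 for day 30 against day 2 to between 0 and 178, and from 0 for day 30 against day 5 to at most 2. The 11 member probes were well above background on 20 of 20 arrays.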
